A study of Homo sapiens with 5 samples.

Results

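The cells described here are the cycling SW480 cells of zebrafish xenografts, compared between 4 and 1 days post-injection (dpi). Of 826 sorted cells that passed the filter on wells, 248 were kept as cycling because UMIs of 13 proliferation genes (MCM2 to MCM7, PCNA, TYMS, RRM2, TOP2A, MKI67, CENPF and UBE2C) made up more of their total than in 70% of all cells of the 5 libraries combined. The other 578 cells are called the remaining cells. SW480 is an established human colorectal cancer line. GFP-transfected cells of this line were injected into zebrafish embryos, and the resulting tumors were dissected, pooled and dissociated. Live GFP-positive cells were sorted singly into plates of 384 wells and sequenced by SORT-seq, in which unique molecular identifiers (UMIs) count RNA molecules. Each plate was 1 library, and libraries 6, 7 and 8 held cells of 1 dpi (n = 3) and libraries 10 and 11 cells of 4 dpi (n = 2), all of the same parental line with no drug or gene perturbation. Because a pool of tumors can have filled several plates of a time point, the spread between libraries may be technical, and p-values measure only that spread.

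A dividing cell passes through G1, copies its DNA in S phase and separates the copies in mitosis. The licensing helicase MCM2 to MCM7 and the sliding clamp PCNA act at the replication fork, whereas TOP2A, MKI67, CENPF and UBE2C accumulate toward mitosis and serve chromosome untangling, chromosome coating, kinetochore function and the ubiquitin-dependent exit from mitosis. In colorectal cancer lines proliferation is driven largely by Wnt signaling, and Notch signaling through HES genes holds intestinal cells in a proliferative, non-secretory state.

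Library 6 contributed 63 cycling cells of 228, library 7 41 of 142, library 8 35 of 163, library 10 49 of 132 and library 11 60 of 161. These were 27.6%, 28.9% and 21.5% of the cells at 1 dpi and 37.1% and 37.3% at 4 dpi, with exact 95% intervals from 15.4% to 37.1% at 1 dpi and from 28.9% to 46.0% at 4 dpi that cover counting error only. The threshold lay at a score of 15.03 UMIs per 10000, the nearest cells kept had scores of 15.2 and the nearest cells left out 14.9. The median score was 25.9 in cells kept and 5.55 in cells left out, and 36 cells lay within 1 UMI per 10000 of the threshold. The cells were selected on the summed UMIs of the score genes, so these values are a description without a test.

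The cycling cells of a library summed to between 1315623 and 2682333 UMIs. Their median depth was 43380, 38478 and 33699 UMIs per cell at 1 dpi and 31299 and 22941 at 4 dpi. Their median mitochondrial share was 13.3%, 11.5% and 11.1% at 1 dpi and 15.4% and 15.7% at 4 dpi, while in the remaining cells it was 12.1%, 10.9% and 10.2% at 1 dpi and 9.63% and 9.92% at 4 dpi. Both 4 dpi libraries thus held shallower cycling cells with more mitochondrial RNA, and the part of these differences in the results was not tested. Epithelial markers (EPCAM, CDH1, CLDN4, KRT8, KRT18 and KRT19) were detected in all 5 libraries at a summed 4262 to 6063 CPM (UMI counts per 1000000 of the cycling cells of a library). Over all cycling cells, 10 leukocyte markers had 114 UMIs, 5 endothelial markers 17, 5 erythroid markers 55, 4 muscle markers 59 and 4 neural markers 13, with CD3E, MPO, TYROBP, CDH5, HBB and GFAP at 0. The 6 fibroblast markers had 248 UMIs, of which 207 were LUM.

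The make-up of the score is given as a description, since its genes chose the cells. The 9 S-phase genes supplied 78.3%, 79.4% and 78.1% of the score UMIs in the libraries of 1 dpi and 61.1% and 53.1% in those of 4 dpi. CENPF was measured at 214, 193 and 201 CPM at 1 dpi and at 454 and 709 at 4 dpi. TOP2A lay at 115, 100 and 140 at 1 dpi and at 269 and 368 at 4 dpi, whereas MCM6 lay at 167, 161 and 188 at 1 dpi and at 108 and 123 at 4 dpi. RRM2, an S-phase gene that supplies deoxynucleotides, lay at 204, 175 and 109 at 1 dpi and at 248 and 229 at 4 dpi, and MCM4 at 121, 123 and 137 and at 146 and 150. The 4 mitotic score genes and these S-phase genes were higher in both 4 dpi libraries than in every library of 1 dpi, MCM3, MCM5, MCM6 and PCNA were lower in both, and MCM2, MCM7 and TYMS overlapped. TYMS was listed in 4 of the 5 libraries with 19 UMIs in cycling cells and contributed little. When the cycling cells were split at their median S-phase share of the score (86.5%), 42, 24 and 21 cells of libraries 6, 7 and 8 were S-phase-leaning (66.7%, 58.5% and 60.0%), against 17 and 20 of libraries 10 and 11 (34.7% and 33.3%). The other cells are called mitosis-leaning. Any S-phase share below that median places a cell there, so the name is relative and such a cell need not be in mitosis.

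**Figure D1:**
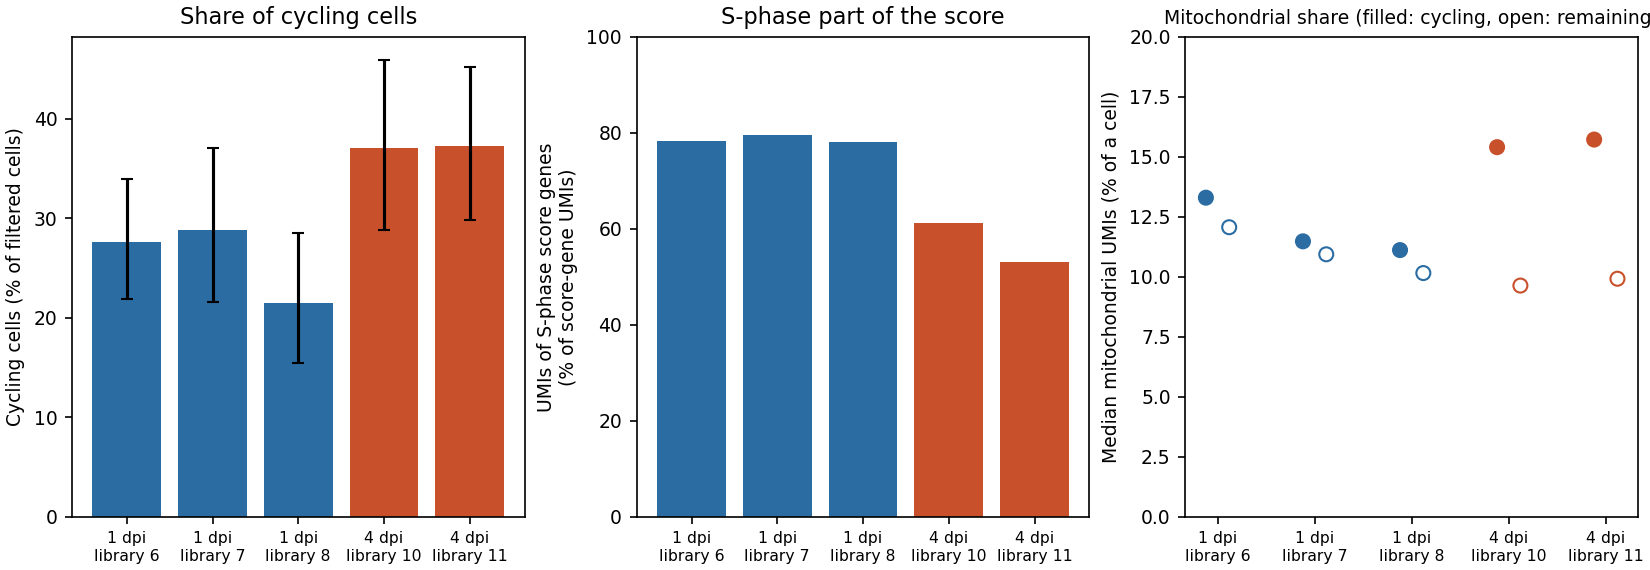
Share of cycling cells among filtered cells (%, bars with exact 95% intervals for counting error), S-phase part of the score UMIs (%) and median mitochondrial share per cell (%) for each library, with 1 dpi in blue and 4 dpi in orange. The S-phase part lies between 78.1% and 79.4% in the 3 libraries of 1 dpi and at 61.1% and 53.1% in those of 4 dpi.

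UMIs of the cycling cells were summed per library and compared between the time points. Levels are given in CPM after TMM scaling, and differences are log2 changes of 4 against 1 dpi with their standard error (SE) and an adjusted p (edgeR quasi-likelihood test, two-sided, Benjamini-Hochberg over all genes tested). Of 10489 genes tested, 738 (7.04%) passed an adjusted p of 0.05 as higher at 4 dpi and 602 (5.74%) as lower. The median change over all genes was -0.01, and for 4590 genes (43.8%) no library of 1 dpi overlapped with one of 4 dpi. DESeq2 called 382 higher and 285 lower. Each of the 2 flow cells held both time points, and with the flow cell as a term 743 genes were higher and 611 lower. On the flow cell of libraries 6, 7 and 10 and on that of libraries 8 and 11, the log2 ratio of 4 to 1 dpi was -3.05 and -3.26 for HES1, 2.71 and 2.84 for PHGR1 and 1.38 and 1.31 for TPX2, but 6.35 and 1.33 for PRSS2. In cells left after matching the numbers of S-phase-leaning and mitosis-leaning cells within each library (178 cells), 438 genes were higher and 363 lower. The counts of the gene lists below stand beside these shares of 7.04% and 5.74%. Fewer cells of a kind and less RNA per cell cannot be told apart in such sums.

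Single libraries, single cells and the filter on mitochondrial UMIs bear on some of the genes named. Leaving out 1 library moved the fold by over 1.5 times for 21 of the 88 called genes, 1 cell held over 33% of the UMIs of a library (of at least 20) for 31 of the 95 genes, and with a mitochondrial maximum of 15% in place of 25% 15 of the 88 calls were lost and 4 genes were not tested. These counts are of genes named with values. The calls lost with the 15% maximum stand beside the genes concerned. Many but not all of the values for single libraries and single cells do so too.

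Most genes of G2 and mitosis were higher at 4 dpi. Of 71 tested members, none of them a score gene, 46 were higher and 0 lower at 4 dpi, with a median log2 change of 0.67, against 7.04% higher among all genes. These members share their timing with the mitotic score genes, by which cells were chosen. Counts and p-values of this list are therefore not independent of that choice and are given as a description. TPX2, which targets Aurora A to the spindle, was measured at 101, 72.4 and 92.9 CPM at 1 dpi and at 226 and 230 at 4 dpi, a log2 change of 1.35 ± 0.15 (adjusted p = 9.5e-06). ASPM, a spindle pole protein, lay at 115, 91.7 and 116 at 1 dpi and at 230 and 286 at 4 dpi, a change of 1.26 ± 0.15 (adjusted p = 1.7e-05). In both genes each library of 4 dpi exceeded each library of 1 dpi, although 1 cell held 139 of 376 UMIs of TPX2 in library 10 and another 53 of 127 in library 8. NUSAP1, which bundles spindle microtubules, rose by 1.30 and the mitotic entry phosphatase CDC25C by 1.60, with 17 of 46 UMIs in 1 cell of library 10 and 10 of 30 in 1 of library 6. CDK1, the kinase of mitotic entry, rose by 0.77 and its partner CCNB1 by 0.59, although the call of CCNB1 was lost without library 7 (0.47 at an adjusted p of 0.0783) and without library 11 (0.54 at an adjusted p of 0.0931).

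Counts in subsets of the cycling cells are a description, because the split rests on the mitotic score genes, which share their timing with this list, and a loss of mitotic calls is built into it. Among S-phase-leaning cells alone, 1 of 57 mitotic genes was higher and 1 lower, with a median of -0.08, beside 2.36% higher and 1.22% lower among all genes there. Among mitosis-leaning cells alone, 7 of 71 were higher and 0 lower, with a median of 0.35, beside 3.82% and 3.81%. With equal numbers of both kinds 2 of 71 were higher and 1 lower, with a median of 0.28, beside 4.51% and 3.74%. In that matched comparison TPX2 had a change of 0.73 (adjusted p = 0.0961) and ASPM of 0.74 (adjusted p = 0.0691). These subsets hold fewer cells. With a mitochondrial maximum of 15%, 45 of 71 mitotic genes were higher and 0 lower, beside 3.98% and 2.78%. In the remaining cells 9 of 67 were higher and 2 lower, beside 9.51% higher and 10.2% lower among all 12069 genes tested there.

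Promoters of mitotic genes often hold the cell cycle genes homology region (CHR), read here as TTTGAA on either strand. In RefSeq windows from 250 bases before to 50 bases after the start of the gene (GRCh38.p14), TTTGAA was found in 41 of the 62 mitotic genes matched by symbol (66.1%), in 24 of the 40 that were called higher (60.0%) and in 15.2% of all 35116 promoters. The match describes letters in a window and not a bound site. The ASPM promoter is shown because it had the lowest p among mitotic genes with a match before the start. Its 250 bases before the start lie on the minus strand at chr1:197146670-197146919, and the match, in capitals, begins 113 bases before the start and reads TTTGAA on the opposite strand.
ASPM: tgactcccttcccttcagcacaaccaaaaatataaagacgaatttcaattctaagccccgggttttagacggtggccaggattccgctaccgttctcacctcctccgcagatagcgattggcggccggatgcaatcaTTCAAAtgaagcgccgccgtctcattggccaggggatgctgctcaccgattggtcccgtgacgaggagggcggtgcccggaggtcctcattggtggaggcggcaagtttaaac

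Of 63 DNA replication genes tested, 4 were higher and 6 lower, near the shares of 7.04% and 5.74% among all genes, and their median was -0.03. These genes share their timing with the S-phase score genes, by which cells were chosen. Their counts and p-values are therefore not independent of that choice and are given as a description. With the threshold set within each plate, 10 were higher and 1 lower, beside 894 and 740 of all 10586 genes tested there. TK1, the salvage thymidine kinase, lay at 52.99, 45.3 and 37.3 CPM at 1 dpi and at 114 and 84.3 at 4 dpi (1.11 ± 0.19, adjusted p = 6.3e-04). CDC6, which loads the MCM helicase, fell by 0.68, a call not made without library 6 (-0.58 at an adjusted p of 0.11), library 7 (-0.68 at an adjusted p of 0.0597) or library 11 (-0.43 at an adjusted p of 0.263), nor with the 15% maximum (-0.69 at an adjusted p of 0.0765).

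Chromatin proteins of dividing cells were higher in 14 of 26 genes tested and lower in 0, with a median of 0.52. These genes mark dividing cells, as do the score genes by which cells were chosen. Their counts and p-values are therefore not independent of that choice and are given as a description. STMN1, a microtubule destabilizer that the list holds as a marker of proliferating cells, lay at 220, 200 and 192 CPM at 1 dpi and at 527 and 499 at 4 dpi (1.32 ± 0.13, adjusted p = 1.9e-06). HMGB2, which bends DNA, lay at 147, 146 and 114 at 1 dpi and at 393 and 324 at 4 dpi (1.39 ± 0.15, adjusted p = 3.4e-06). Neither gene overlapped between the time points. The linker histone H1FX rose by 1.21. The replication-independent transcripts HIST2H2BE and HIST1H2BD rose by 3.01 and 2.94 from few UMIs, their reads may be shared with near-identical histone genes, and the call of HIST1H2BD was lost without library 10 (2.46 at an adjusted p of 0.0648). Without library 7 HIST1H2BD rose by 4.13, and 1 cell held 10 of 20 UMIs of HIST2H2BE in library 10. With equal numbers of S-phase-leaning and mitosis-leaning cells, 10 of 25 chromatin genes were higher and 0 lower, beside 4.51% and 3.74% among all genes, and STMN1 and HMGB2 differed by 1.22 and 1.06. In the remaining cells 14 of 28 were higher and 3 lower.

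Among G1 cyclins, CDKs and their inhibitors, 8 of 26 were higher and 0 lower. CDK6, the G1 kinase that phosphorylates RB, was measured at 327, 340 and 244 CPM at 1 dpi and at 585 and 797 at 4 dpi (1.18 ± 0.15, adjusted p = 3.9e-05). CDKN2C, an inhibitor of CDK4 and CDK6, rose by 1.15, and CCNG2, an atypical cyclin of arrested cells, rose by 1.60. CCNG2 lay at 25.7 CPM in library 6 against 5.43 and 8.05 in libraries 7 and 8, rose by 2.74 without library 6, and had 40 of 76 UMIs in 1 cell of library 11. CCND1, the partner of CDK6, had 252, 276 and 336 CPM at 1 dpi and 238 and 206 at 4 dpi, a change of -0.37 that did not pass the test (adjusted p = 0.105). MYC had a change of -0.49 (adjusted p = 0.0692) and passed without library 8 (-0.63 at an adjusted p of 0.0218) or library 10 (-0.69 at an adjusted p of 0.0393). Of 21 p53 targets, 1 was higher and 3 were lower. The antiproliferative gene BTG2 rose by 1.34 and TIGAR, which lowers glycolytic flux, fell by 1.06. Neither was called with the 15% maximum (0.60 at an adjusted p of 0.125 and -0.60 at an adjusted p of 0.0739), and 1 cell held 27 of 75 UMIs of BTG2 in library 7.

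Of 12 tested Notch effectors and targets, 4 were lower (HES1, HES5, HEYL and ID1) and 2 higher (HES6 and HES2), with a median of -0.47. HES1, the transcriptional repressor induced by Notch, was measured at 636, 1011 and 587 CPM in libraries 6, 7 and 8 and at 99.3 and 61.1 in libraries 10 and 11 (-3.21 ± 0.23, adjusted p = 3.6e-08). The lowest library of 1 dpi exceeded the highest of 4 dpi, and the fitted level was 9.24 times higher at 1 dpi. A single cell held 590 of the 1679 UMIs of HES1 in library 6, 286 of 802 in library 8 and 72 of 165 in library 10, but 41 and 24 cells of libraries 6 and 8 had at least 1 UMI. HES5, a relative of HES1, lay at 49.2, 24.1 and 41.7 CPM at 1 dpi and at 3.61 and 5.15 at 4 dpi (-3.14 ± 0.38, adjusted p = 2.1e-05). Few cells carried HES5, since in library 7 only 8 had a UMI and 1 of them held 25 of 40. HEYL, a further repressor of this family, fell by 1.82, a call not made without library 6 (-1.53 at an adjusted p of 0.103) or library 11 (-1.52 at an adjusted p of 0.15). ID1, an inhibitor of basic helix-loop-helix factors, fell by 1.11.

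The opposite direction was seen for HES6, which antagonizes HES1. HES6 was measured at 51.1, 42.8 and 40.2 CPM at 1 dpi and at 174 and 199 at 4 dpi (2.04 ± 0.16, adjusted p = 1.1e-07), and at a fixed depth of 5000 UMIs per cell it was detected in 12.7%, 14.6% and 23.5% of cycling cells at 1 dpi and in 39.6% and 44.1% at 4 dpi. HES2 rose by 2.47 from 3.03, 3.02 and 4.39 CPM to 17.5 and 20.6, a call not made with the 15% maximum (1.66 at an adjusted p of 0.0738). NRARP, a feedback inhibitor of Notch, had 38.6, 49.5 and 29.3 CPM at 1 dpi and 42.1 and 28.3 at 4 dpi and overlapped between the time points (-0.16 at an adjusted p of 0.713). Of 20 receptors, ligands and processing components, 2 were higher and 1 lower. The receptor NOTCH1 rose by 0.70, a call not made without library 6 (0.56 at an adjusted p of 0.125), library 7 (0.70 at an adjusted p of 0.064) or library 11 (0.53 at an adjusted p of 0.217), nor with the 15% maximum (0.46 at an adjusted p of 0.266). PSENEN, a subunit of the gamma-secretase that cleaves Notch receptors, rose by 0.83.

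The promoters of HES1, HES5 and HEYL are shown because these effectors fell and are known targets of RBPJ, the DNA-binding partner of Notch. In the same RefSeq windows the RBPJ sequence GTGGGAA was found on either strand once in HES1, 2 times in HES5 and once in HEYL, and in 6.25% of all promoters. The shorter TGGGAA, which GTGGGAA contains, is in 24.0% of all promoters and is printed in capitals, as TTCCCA where it lies on the opposite strand. Its matches begin 84 and 70 bases before the start of HES1, 224 and 80 before that of HES5 and 178 and 99 before that of HEYL. The 250 bases before the start lie at chr3:194135898-194136147 on the plus strand for HES1 and, on the minus strand, at chr1:2530264-2530513 for HES5 and chr1:39639644-39639893 for HEYL.
HES1: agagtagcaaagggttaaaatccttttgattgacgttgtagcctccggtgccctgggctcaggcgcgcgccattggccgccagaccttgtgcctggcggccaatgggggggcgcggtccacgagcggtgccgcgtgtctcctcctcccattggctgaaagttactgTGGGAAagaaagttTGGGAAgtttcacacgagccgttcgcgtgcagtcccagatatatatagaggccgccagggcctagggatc
HES5: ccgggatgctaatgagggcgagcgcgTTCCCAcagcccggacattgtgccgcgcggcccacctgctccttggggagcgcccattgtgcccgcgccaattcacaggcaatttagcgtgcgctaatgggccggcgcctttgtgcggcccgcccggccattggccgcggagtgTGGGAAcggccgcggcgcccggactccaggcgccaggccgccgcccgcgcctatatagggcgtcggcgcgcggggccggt
HEYL: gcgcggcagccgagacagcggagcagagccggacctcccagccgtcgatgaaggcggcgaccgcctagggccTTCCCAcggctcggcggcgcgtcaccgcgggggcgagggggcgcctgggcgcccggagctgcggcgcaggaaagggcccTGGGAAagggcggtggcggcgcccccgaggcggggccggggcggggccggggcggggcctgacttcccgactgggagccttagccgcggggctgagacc

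Epithelial genes moved in both directions. PHGR1, a small protein of the intestinal epithelium, had the lowest p of the genes named here with values. It lay at 42.4, 30.2 and 41.0 CPM at 1 dpi and at 238 and 293 at 4 dpi (2.80 ± 0.17, adjusted p = 2.1e-09). Each 4 dpi library was more than 5 times the highest of 1 dpi. Of 21 keratin and colon epithelial genes, 4 were higher and 5 lower, and the tight junction claudins CLDN1 and CLDN3 rose by 1.21 and 1.25. Falls were found for the simple-epithelial keratin KRT19 (-0.90 ± 0.17, adjusted p = 0.0015), the crosslinking enzyme TGM2 (-3.17) and TRIM15 (-1.94). The change was -4.37 for TGM2 and -2.63 for TRIM15 without library 10 and -2.56 for TGM2 without library 11, and 1 cell held 15 of 32 UMIs of TGM2 in library 7 and 38 of 77 of TRIM15 in library 8. KRT17, a stress keratin of stratified epithelia, was measured at 71.2, 146 and 67.3 CPM at 1 dpi and at 9.03 and 8.36 at 4 dpi (-3.43 ± 0.36, adjusted p = 3.4e-06), and KRT15 fell by 3.22. One cell of library 7 held 132 of its 242 UMIs of KRT17, and reads of KRT17 can be shared with near-identical copies.

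S100 proteins, small calcium-binding proteins, and annexins were lower in 9 of 18 genes tested and higher in 0, with a median of -0.61. S100A11 was measured at 992, 1332 and 978 CPM at 1 dpi and at 558 and 367 at 4 dpi (-1.25 ± 0.17, adjusted p = 6.2e-05). S100A16 fell by 1.04 and the motility-associated S100A4 by 1.07. S100A3 lay at 18.2, 52.5 and 21.2 CPM at 1 dpi and at 3.61 and 3.22 at 4 dpi (-3.11 ± 0.52, adjusted p = 5.3e-04), and 1 cell of library 7 held 67 of 87 UMIs there. Without library 7 S100A3 fell by 2.49. With equal numbers of S-phase-leaning and mitosis-leaning cells, 8 of 17 members were lower and 0 higher, beside 3.74% and 4.51%. Of 13 mesenchymal genes, 2 were higher and 2 lower. The intermediate filament VIM lay at 13.2, 29.6 and 40.2 at 1 dpi and at 105 and 62.4 at 4 dpi (1.69 ± 0.29, adjusted p = 7.5e-04), a call that DESeq2 did not make (adjusted p = 0.103). One cell held 34 of 49 UMIs of VIM in library 7 and another 32 of 55 in library 8. The actin-binding TAGLN fell by 2.14, with 40 of 59 UMIs in 1 cell of library 7.

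Secretory-lineage genes were little detected, with 8 of 28 listed genes tested, of which 3 were higher and 2 lower. The lower ones were the trefoil genes TFF1 and TFF2, and the higher ones were TFF3, MUC5AC and MUC1. TFF3, the goblet cell trefoil peptide, was measured at 76.1, 74.2 and 95.8 CPM at 1 dpi and at 131 and 132 at 4 dpi (0.70 ± 0.16, adjusted p = 0.0059). With a mitochondrial maximum of 15% the change of TFF3 was 0.07 (adjusted p = 0.886). The gel-forming mucin MUC5AC rose by 2.78 from few UMIs, a call not made without library 11 (1.90 at an adjusted p of 0.163), and by 3.49 without library 8. Serine proteases and their inhibitors were lower in 6 of 15 genes and higher in 1. KLK6, a kallikrein, lay at 172, 168 and 181 at 1 dpi and at 48.1 and 35.4 at 4 dpi (-2.05 ± 0.17, adjusted p = 3.6e-07), KLK10 fell by 2.36 and SERPINB5, the serpin maspin, by 1.51. KLK10 lay at 14.4 and 3.22 CPM at 4 dpi, its change was -3.83 without library 10 and -1.67 without library 11, and 1 cell held 40 of 106 UMIs in library 6. The member that rose was PRSS2, a trypsinogen, at 3.79, 1.21 and 54.1 CPM at 1 dpi and at 204 and 136 at 4 dpi (3.37 ± 0.53, adjusted p = 2.9e-04). One cell of library 8 held 71 of the 74 UMIs of PRSS2 in that library, the change was 5.91 without library 8 and 2.71 without library 6, DESeq2 did not call the gene (adjusted p = 0.315), and the trypsinogens are near-identical copies.

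Of 24 Wnt targets and feedback genes, 6 were higher and 1 lower, with a median of 0.01. AXIN2, ASCL2 and APCDD1 did not pass the test, although APCDD1 passed it as higher when library 8 was left out. PROX1, a homeobox factor of colorectal cancer progression, lay at 159, 119 and 121 CPM at 1 dpi and at 182 and 276 at 4 dpi (0.77 ± 0.17, adjusted p = 0.0052), a call not made without library 11 (0.44 at an adjusted p of 0.185). The secreted Wnt inhibitors DKK1 and NOTUM rose by 1.02 and 0.58. The call of DKK1 was lost without library 10 (0.72 at an adjusted p of 0.0796) and that of NOTUM without library 7 (0.47 at an adjusted p of 0.0707) and with the 15% maximum (0.27 at an adjusted p of 0.295). The member that fell was PLAUR, the urokinase receptor, at 149, 275 and 61.4 at 1 dpi and at 29.5 and 14.8 at 4 dpi (-2.86 ± 0.43, adjusted p = 1.8e-04). One cell held 209 of 456 UMIs of PLAUR in library 7, the highest library, and the change was -3.46 without library 10.

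Cholesterol and fatty acid synthesis genes were lower in 11 of 29 genes tested and higher in 0, with a median of -0.45. SCD, the stearoyl-CoA desaturase, lay at 227, 215 and 198 CPM at 1 dpi and at 97.5 and 83.0 at 4 dpi (-1.24 ± 0.15, adjusted p = 1.8e-05). SREBF2, the transcription factor that induces this pathway, fell by 1.41. Neither gene overlapped between the time points. With equal numbers of S-phase-leaning and mitosis-leaning cells, 8 of 29 were lower and 0 higher, beside 3.74% and 4.51%, and in the remaining cells 16 of 31 were lower and 0 higher, beside 10.2% and 9.51%.

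Immediate early genes, which are induced within minutes of a stimulus, were lower in 9 of 35 genes and higher in 2. EGR2 lay at 55.6, 78.4 and 97.3 CPM at 1 dpi and at 9.63 and 10.3 at 4 dpi (-2.92 ± 0.29, adjusted p = 1.9e-06), and 1 cell held 60 of its 133 UMIs in library 8. KLF10 fell by 1.00 and FOSL1 by 0.86, whereas the stress factor ATF3 rose by 1.21. The call of FOSL1 was lost with the 15% maximum (-0.46 at an adjusted p of 0.205), and 1 cell held 167 of 373 UMIs of KLF10 in library 11 and another 184 of 557 of ATF3 in library 10. Among S-phase-leaning cells 8 of 33 were higher and 0 lower (median 0.21), beside 2.36% and 1.22% among all genes, and among mitosis-leaning cells 1 of 35 was higher and 13 were lower (median -0.76), beside 3.82% and 3.81%. KLF10 had a change of -0.30 in the former and of -1.61 in the latter. The difference between the parts was not tested. Of 21 chemokine and NF-kB genes, 1 was higher and 5 were lower. The higher one was the chemokine CXCL2. CXCL1 did not pass the test, although it passed as higher when library 7 was left out. The NF-kB subunit NFKB1 fell by 1.01 and its coregulator BCL3 by 1.83, with 22 of 59 UMIs of BCL3 in 1 cell of library 8.

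Of 15 mitochondrially encoded genes, 6 were higher and 0 lower, with a median of 0.33. MT-ND1, a subunit of complex I, rose by 0.64, and the ribosomal RNA MT-RNR2 by 0.62, a call not made without library 11 (0.52 at an adjusted p of 0.056). When wells with 15% or more mitochondrial UMIs were left out, 0 of 15 were higher and 4 lower, with a median of -0.25, and neither MT-ND1 (0.30 at an adjusted p of 0.108) nor MT-RNR2 (0.16 at an adjusted p of 0.457) was called. That filter removes cells by the quantity this list measures, so these values are no check of its direction. It left 52, 37 and 35 cycling cells at 1 dpi and 23 and 30 at 4 dpi.

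Of 22 heat shock and chaperone genes, 3 were higher and 0 lower. HSPA1A, the inducible HSP70, was measured at 9.08, 21.7 and 13.2 CPM at 1 dpi and at 63.8 and 149 at 4 dpi (2.91 ± 0.32, adjusted p = 5.9e-06). A single cell held 81 of its 106 UMIs in library 10 and another 210 of 232 in library 11, so the level at 4 dpi rested on 1 cell in each library. Without library 11 HSPA1A rose by 2.18. Its near-identical copy HSPA1B rose by 1.85, a call not made without library 11 (1.32 at an adjusted p of 0.0572), and reads may be split between them. It too rested on single cells, with 44 of 71 UMIs in 1 cell of library 10 and 94 of 127 in 1 of library 11, and it rose by 2.67 without library 7. The small heat shock protein HSPB1 rose by 0.71. Hypoxia and glycolysis genes were lower in 3 of 30 and higher in 1, among them the mTOR inhibitor DDIT4 (-1.50 ± 0.24, adjusted p = 3.6e-04) and the glucose transporter SLC2A3 (-1.82 ± 0.31, adjusted p = 6.5e-04). SLC2A3 changed by -2.49 without library 10 and was not called with the 15% maximum (-0.997 at an adjusted p of 0.0511), and 1 cell held 29 of 68 UMIs of DDIT4 in library 10.

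Interferon-stimulated genes were higher in 6 of 26 genes and lower in 1, with a median of 0.32. HLA-E, a nonclassical class I molecule, rose by 0.71 and IFI6 by 1.19. The call of HLA-E was lost without library 10 (0.67 at an adjusted p of 0.0608), and that of IFI6 without library 6 (1.27 at an adjusted p of 0.0582), library 7 (1.00 at an adjusted p of 0.0883) or library 10 (0.97 at an adjusted p of 0.19) and with the 15% maximum (1.12 at an adjusted p of 0.129). With equal numbers of both kinds, 0 of 22 were higher and 1 lower, beside 4.51% and 3.74%. Of 22 NRF2 and iron genes, 2 were higher and 6 lower. The transferrin receptor TFRC lay at 389, 407 and 311 CPM at 1 dpi and at 120 and 162 at 4 dpi (-1.39 ± 0.16, adjusted p = 1.5e-05), and GPX4, which reduces lipid peroxides, rose by 0.88. The metallothionein MT2A lay at 602, 763 and 707 at 1 dpi and at 277 and 289 at 4 dpi (-1.28 ± 0.14, adjusted p = 5.4e-06). The call of MT2A was lost with the 15% maximum (-0.58 at an adjusted p of 0.071). MT1E of the same multigene family fell by 1.96, by 1.33 without library 10 and by 3.00 without library 11, and 1 cell held 94 of 176 UMIs of MT1E in library 8. Ribosome biogenesis genes were lower in 5 of 39 and higher in 0, and of 28 genes of the amino acid response 2 were higher and 4 lower.

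The largest changes were found in weakly expressed genes. The antisense transcript DBH-AS1 lay at 1.89, 0.603 and 0.731 CPM at 1 dpi and at 16.2 and 52.7 at 4 dpi (4.73 ± 0.55, adjusted p = 1.6e-05). The transcription factor MAF rose by 3.53, the mitochondrial carrier UCP2 by 3.49 and the scavenger receptor SCARA3 by 3.29. Without library 6 DBH-AS1 rose by 5.54, MAF by 4.51 and SCARA3 by 3.88, and DBH-AS1 rose by 5.34 without library 10 and by 3.67 without library 11. RCSD1 rose by 3.86 and the neprilysin gene MME by 3.02, neither of which DESeq2 called, and MME lost its call without library 11 (2.48 at an adjusted p of 0.158). ZNF442 had 3 UMIs at 1 dpi but 32 at 4 dpi, which after scaling to depth is a ratio of 18.2 (exact 95% interval 5.71 to 93.1 for counting error), and 10 of its 21 UMIs in library 11 were in 1 cell. RCSD1 rose by 3.02 without library 6, and without library 8 had 0 UMIs at 1 dpi, as had MME without library 6. MUC5AC, SCARA3, MME and PTGS1 were not tested with the 15% maximum.

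Among the falls, GRHL3, an epithelial differentiation factor, had 52 UMIs at 1 dpi and 0 at 4 dpi. Against a floor of 3 counts over the group, it was at least 10.1-fold lower at 4 dpi. The ETS factor ELK3 had 67 UMIs at 1 dpi against 2 at 4 dpi (ratio 19.6, interval 5.21 to 165), and the glycosyltransferase MGAT3 had 65 and 2, a ratio of 19.0 (interval 5.05 to 160.2). The cyclooxygenase PTGS1 had 44 and 1 (ratio 25.7, interval 4.38 to 1039) and the cardiac troponin TNNT2 had 55 and 3 (ratio 10.7, interval 3.48 to 53.6). Both UMIs of ELK3 and of MGAT3 and the single UMI of PTGS1 at 4 dpi were in library 11. The calls of PTGS1 and TNNT2 were lost without library 10 (-3.42, adjusted p = 0.0522, and -2.80, adjusted p = 0.0535).

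Whether these changes differed from those of the remaining cells was tested as the interaction of cell group and time, with the library as a block. Of 11688 genes tested, 31 (0.265%) had a larger and 36 (0.308%) a smaller log2 change in cycling cells. The counts depended on single libraries: 2 and 3 genes were called without library 6, 8 and 4 without library 7, 46 and 34 without library 8, 64 and 95 without library 10 and 41 and 32 without library 11. For HES1 the change in the remaining cells was -3.16, and the difference of -0.10 ± 0.18 did not pass the test (adjusted p = 0.904). The same held for PHGR1 (2.18 in remaining cells, adjusted p of the difference = 0.268), HES5 (-5.76 at an adjusted p of 0.0986) and STMN1 (1.15 at an adjusted p of 0.829).

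Other genes differed in their change between the cell groups. MT2A had a change of -1.28 in cycling and 0.32 in remaining cells, where it lay at 1186, 847 and 1256 CPM at 1 dpi and at 1723 and 1012 at 4 dpi, a difference of -1.60 ± 0.22 (adjusted p = 4.8e-04) that was called in 12 of 14 alternative settings. The noncoding RNA BCYRN1 differed by -1.55 ± 0.23 (adjusted p = 0.0020, 12 of 14), with changes of -1.42 and 0.05, and 1 cell of library 7 held 76 of its 118 UMIs in cycling cells. In cycling cells the calls of LBR (0.53 at an adjusted p of 0.0513) and TNFRSF12A (-0.50 at an adjusted p of 0.127), as that of MT2A, were lost with the 15% maximum. TNFRSF12A, the receptor of the cytokine TWEAK, differed by -1.06 ± 0.17 (adjusted p = 0.0028, 10 of 14). LBR, a receptor of the nuclear envelope, differed by 1.16 ± 0.19 (adjusted p = 0.0028, 11 of 14), with changes of 0.74 and -0.45. The nuclear lamin LMNA differed by -0.81 (adjusted p = 0.0144, 9 of 14) and KRT19 by -0.86 (adjusted p = 0.0175, 9 of 14). HSPA1A differed by 3.35 ± 0.40 (adjusted p = 1.6e-04, 11 of 14), a value that rests on the same single cells. Of 18 S100 and annexin genes, 0 had a larger and 5 a smaller change in cycling cells. That count depended on the setting, since over all genes tested 0 had a smaller change with the 80th percentile and 3 with the 15% maximum.

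Some of the genes that differed act in cell division. FAM83D, which aligns chromosomes, had changes of 0.60 in cycling and -0.90 in remaining cells, a difference of 1.47 ± 0.26 (adjusted p = 0.0093, 10 of 14 settings). Its rise in cycling cells lost its call without library 6 (0.67 at an adjusted p of 0.0635), library 7 (0.57 at an adjusted p of 0.0968), library 8 (0.58 at an adjusted p of 0.0714) or library 11 (0.30 at an adjusted p of 0.455). CKS2, a subunit of the cyclin-dependent kinases, had changes of 0.26 (adjusted p = 0.265) and -0.78, a difference of 0.99 ± 0.17 (adjusted p = 0.0083, 10 of 14). One cell held 125 of 371 UMIs of CKS2 in library 8, and 1 cell held 62 of 173 UMIs of FAM83D in library 6 and another 58 of 173 in library 11. ARL6IP1 and DNAJB1, which are not counted here as division genes, differed by 0.88 and 1.00 (7 and 9 of 14). ARL6IP1 had changes of 0.97 in cycling and 0.06 in remaining cells. DNAJB1 had changes of -0.07 (adjusted p = 0.780) and -1.10. One cell held 203 of 574 UMIs of DNAJB1 in library 10 and another 172 of 498 in library 11, so that single cells weigh on its level at 4 dpi. Remaining cells were chosen for low levels of score genes, with which division genes share their timing.

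**Figure D2:**
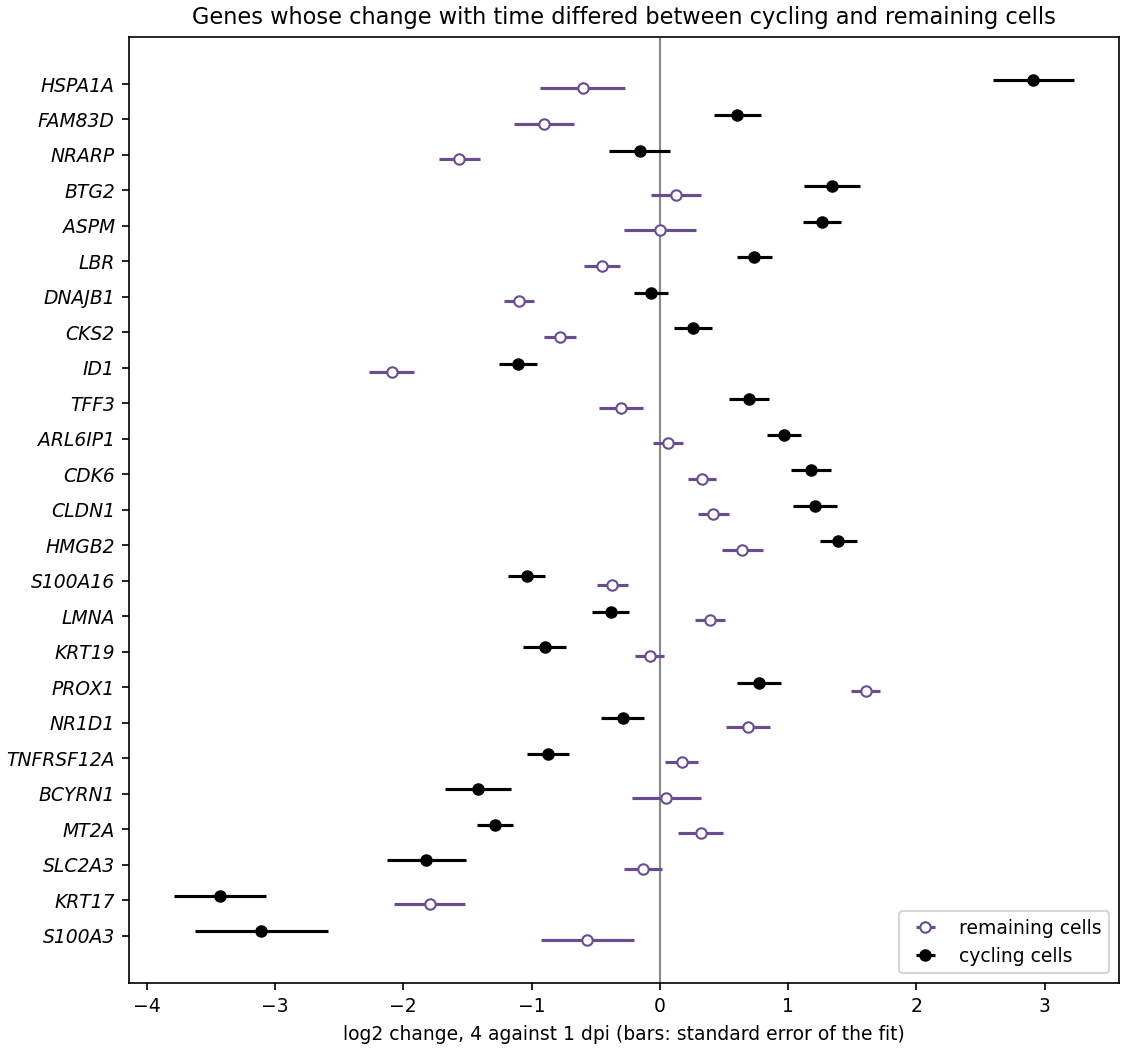
log2 change of 4 against 1 dpi in cycling cells (filled) and remaining cells (open), with the standard error of each fit as bars, for the 25 genes of the text that passed the test of the difference and had UMIs at both time points. HSPA1A has a change of 2.91 in cycling and -0.60 in remaining cells, and S100A3 of -3.11 and -0.56.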

How the data were processed

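The authors sequenced the 5 SORT-seq libraries, aligned reads with BWA (hg38, per the submitters' processing notes, versions not given in the sources used here) against a human transcriptome, and deposited for each well the UMI counts of every gene, not normalized. Kept wells had over 2000 genes and mitochondrial UMIs under 25%, as in the study, counted over the 15323 rows listed in all 5 libraries. The score used all rows without ERCC spike-ins. Single cells had been sorted by FACS, and doublets were not searched for. Flow cells were taken from the codes in the names of the deposited files. No cell had counts identical to those of another well.

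UMIs of cycling and of remaining cells were summed per library, since cells are not replicates, and tested with edgeR 4.0.16 in R 4.3.3 (TMM, filterByExpr, glmQLFit and glmQLFTest, two-sided, Benjamini-Hochberg, threshold 0.05). Over all 5 libraries, the interaction of cell group and time had the library as a block. Standard errors are those of the fits. Library depth was 4487175 to 7632953 UMIs on human genes, and exact intervals cover counting error only. Alternatives were DESeq2 1.42.0 and other thresholds, filters, normalizations and subsets of cells. The comparison with equal numbers of both kinds and the threshold within each plate in the interaction were added after seeing the data. The fits were tested on simulated data.

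The members, lists and genes were chosen with earlier results of these data known. Outside the score genes, the naming rule covered the 12 largest rises and 12 largest falls among called genes with at least 30 UMIs and no overlap between time points, up to 3 called genes in each direction and the extremes of each list, a fixed set of Notch, Wnt, secretory and cell cycle genes, and up to 6 genes in each direction for the interaction. It gave 158 genes, of which 95 are named with values and are counted as the genes in the text. Some further genes are named without values. Of the 125 called genes under the rule, 50 lost their call without at least 1 library and 32 were not called by DESeq2, against 17 and 15 of the 88 called genes in the text. The 95 were picked from the 158 after their values were seen, with sturdier calls preferred, so the named genes overstate how sturdy the calls are. Promoter windows came from RefSeq (GRCh38.p14). HEY1, NOTCH3, DLL1, DLL4, CX3CL1 and TERT had too few counts to be tested. Some results are not reported here.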

Additional observations from a re-analysis of the deposited data

Results flagged for a closer look

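The test of the difference between cycling and remaining cells in the log2 change from 1 to 4 dpi (edgeR quasi-likelihood test with the library as a block, adjusted p under 0.05) picked out 26 of the genes named in the text. The change was larger (more positive) in cycling cells for HSPA1A (3.35), FAM83D (1.47), NRARP (1.38), BTG2 (1.25), ASPM (1.23), LBR (1.16), DNAJB1 (1.00), CKS2 (0.99), ID1 (0.95), TFF3 (0.94), ARL6IP1 (0.88), CDK6 (0.82), CLDN1 (0.77) and HMGB2 (0.72). It was smaller (more negative) for GRHL3 (-6.47), S100A3 (-2.52), KRT17 (-1.68), SLC2A3 (-1.66), MT2A (-1.60), BCYRN1 (-1.55), TNFRSF12A (-1.06), NR1D1 (-0.97), PROX1 (-0.88), KRT19 (-0.86), LMNA (-0.81) and S100A16 (-0.70). The value of GRHL3, which had 0 UMIs in cycling cells at 4 dpi, depends on the prior count of the fit and is no bound. ID1 fell by 1.11 in cycling and by 2.09 in remaining cells, PROX1 rose by 0.77 and 1.60, and NRARP had changes of -0.16 and -1.56. Of 14 alternative settings the difference was called in 12 for MT2A and BCYRN1, 11 for HSPA1A and LBR, 10 for FAM83D, CKS2 and TNFRSF12A, 9 for DNAJB1, KRT19 and LMNA, 7 for ARL6IP1, 6 for ASPM, TFF3, CDK6, SLC2A3 and NR1D1, 5 for NRARP, BTG2 and ID1, 4 for S100A3, KRT17, PROX1 and S100A16, 3 for CLDN1 and HMGB2 and 1 for GRHL3. One cell held 14 of 23 UMIs of GRHL3 in library 7 and 125 of 364 of NR1D1 in library 6. Remaining cells were chosen for low levels of score genes, with which ASPM, FAM83D, CKS2 and HMGB2 share their timing. The differences of these 4 genes are therefore not independent of the choice of cells. No explanation of the differences of the 26 genes was tested.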

How the results depend on the processing

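Genes called higher and lower at 4 dpi in cycling cells numbered 738 and 602. They numbered 382 and 285 with DESeq2, 366 and 281 with the 80th percentile, 396 and 277 with a mitochondrial maximum of 15%, 211 and 109 in S-phase-leaning cells, 366 and 365 in mitosis-leaning cells, and 438 and 363 with equal numbers of both. With the 60th percentile 951 genes were lower. Leaving out 1 library gave 390 to 638 higher and 238 to 472 lower. Other normalization, filters on genes, thinned sums, a threshold within each plate, a score on thinned cells and the flow cell as a term stayed within 1.5 times. The subsets hold fewer cells.

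Genes with a larger or smaller change in cycling than in remaining cells numbered 31 and 36. Leaving out 1 library gave 2 to 64 larger and 3 to 95 smaller. There were 67 and 75 without a filter on low counts, 13 and 9 with the 60th percentile, 3 and 0 with the 80th, 11 and 3 with a mitochondrial maximum of 15%, 12 and 15 against the bottom 30% of scores, and 6 and 1 with no library block. No paired analysis by replicate number was possible because the time points share no library number. The fit with the flow cell as a term, which blocks on another grouping, gave 743 and 611.

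Of the changes with time of named genes, the direction turned for NRARP (0.78 in S-phase-leaning cells, -0.48 to 0.098 on leaving out 1 library, above 0 without library 7 or 11), CCNB1 (-0.015 in mitosis-leaning cells, -0.10 with equal numbers), CKS2 (-0.19 and -0.29 in the same, -0.018 to 0.48 on leaving out 1 library, below 0 without library 10), DNAJB1 (0.24 with the 15% maximum) and NR1D1 (0.047 with the 60th percentile, 0.72 with the 15% maximum, 0.0029 in S-phase-leaning cells). In S-phase-leaning cells it also turned for ASPM (-0.25), NUSAP1 (-0.044), CDK1 (-0.14), TK1 (-0.12), MYC (0.22) and FAM83D (-0.44). The difference of NR1D1 between cell groups was 0.10 with the 15% maximum. DESeq2 did not call HEYL, NOTCH1, CDC6, CCNG2, VIM, PRSS2, SLC2A3, HLA-E, IFI6, MT1E, HSPA1B, RCSD1, MME, PTGS1 and FAM83D, which are 15 of the 88 called genes named. The causes were not tested. Genes with few UMIs are limited by depth.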

Other observations

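With rows listed in only some libraries added, IGLL1, a surrogate light chain gene, was also called between time points in cycling cells (edgeR quasi-likelihood test, Benjamini-Hochberg). It had no UMI at 1 dpi (0 in each library) and 15 and 20 UMIs at 4 dpi. It was noticed after its values were seen.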
